A study of Mus musculus with 32 samples.

Results

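Delayed rises and delayed falls are 120 genes of hydrazine-exposed FE1 cells whose RNA differed from vehicle mainly 20 h after the compound had been removed. FE1 is a mouse lung cell line, labelled as epithelial. The cells received 0 (vehicle), 1, 4, 6 or 10 mM hydrazine for 4 h and were collected either at once or after a further 20 h of washout. Each of the 10 groups held 3 libraries, named a to c, except 4 mM at 4 h, which held 5. The labels gave 1 cell line for all groups and did not state whether libraries came from separate cultures, so p-values measured the spread between these libraries, which may be technical.

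Members were chosen from the measured values. Expected counts were divided by the library total and scaled to CPM, and genes with a mean of at least 5 CPM in any washout group were kept, which left 10281 of 49585 entries. For each dose, D was the difference from the vehicle of the same time in the group mean of log2(CPM + 0.5). The score was the mean washout D at 4 and 10 mM minus the largest absolute 4 h D at 4, 6 and 10 mM. The 60 genes with the highest scores were the delayed rises, and the 60 highest with the sign of the washout D turned were the delayed falls. The names rise and fall state the sign that the score used and no test. All 60 falls reached 5 CPM in the washout vehicle, but only 39 of 60 rises did, and the other 21 passed through a treated group, so their rise was partly set by the selection. All 120 members passed the filter on low counts of the test.

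Hydrazine is a reactive reducing agent that can damage DNA and can bind metal ions and carbonyl groups. Cells that survive such an exposure restore their RNA over hours, and genes that respond late can be secondary targets of signalling or of altered metabolism. Glycolysis turns glucose into pyruvate and lactate, and many of its enzymes are transcriptional targets of HIF1, a factor that is broken down when oxygen, iron and the prolyl hydroxylases are present. Interferons are antiviral signals that raise a large set of genes, among them those for MHC class I antigen presentation.

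The falls held a large set of glycolytic and HIF1 target genes and the rises held interferon-linked genes, so promoters of these sets are shown here for reference beside the values given further on. The sequences are RefSeq promoters on GRCm38.p6, 250 bases upstream of the annotated start, written 5′ to 3′ on the strand of the gene. In the first 4, capitals mark each ACGTG or GCGTG, the core letters of the hypoxia response element, on either strand (CACGT and CACGC are the reverse forms). ACGTG also lies within the E-box CACGTG, where the matches on both strands overlap. Ldha encodes lactate dehydrogenase A, Pgk1 phosphoglycerate kinase, Bnip3 a mitophagy receptor and Pdk1 the kinase that restrains pyruvate dehydrogenase.
Ldha, chr7:46845554-46845803, plus strand: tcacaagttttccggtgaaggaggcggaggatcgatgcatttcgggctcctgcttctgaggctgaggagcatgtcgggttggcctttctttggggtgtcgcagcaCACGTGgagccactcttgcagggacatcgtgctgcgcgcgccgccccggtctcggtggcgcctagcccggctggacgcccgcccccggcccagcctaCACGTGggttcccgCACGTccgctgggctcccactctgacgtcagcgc
Pgk1, chrX:106186850-106187099, plus strand: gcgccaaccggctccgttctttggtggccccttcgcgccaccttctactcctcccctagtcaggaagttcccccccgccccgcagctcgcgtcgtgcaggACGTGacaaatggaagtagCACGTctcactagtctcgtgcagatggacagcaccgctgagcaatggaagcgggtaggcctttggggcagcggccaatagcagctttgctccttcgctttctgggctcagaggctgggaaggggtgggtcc
Bnip3, chr7:138909507-138909756, minus strand: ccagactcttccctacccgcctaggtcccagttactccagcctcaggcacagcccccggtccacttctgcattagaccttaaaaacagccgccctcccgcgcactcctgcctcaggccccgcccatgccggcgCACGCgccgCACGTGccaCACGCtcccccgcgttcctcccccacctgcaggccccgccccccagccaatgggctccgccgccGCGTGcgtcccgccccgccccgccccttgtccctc
Pdk1, chr2:71872974-71873223, plus strand: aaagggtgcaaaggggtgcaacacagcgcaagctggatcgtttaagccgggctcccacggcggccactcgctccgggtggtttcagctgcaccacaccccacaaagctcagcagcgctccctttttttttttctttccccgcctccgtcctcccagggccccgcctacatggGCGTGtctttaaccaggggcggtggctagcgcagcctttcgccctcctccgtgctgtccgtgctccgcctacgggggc
In the next 2, capitals mark the core of the interferon-stimulated response element on either strand, which is GAAA, any 2 bases and GAAA again. Ifit3 encodes an antiviral RNA-binding protein and B2m the invariant chain of MHC class I.
Ifit3, chr19:34583279-34583528, plus strand: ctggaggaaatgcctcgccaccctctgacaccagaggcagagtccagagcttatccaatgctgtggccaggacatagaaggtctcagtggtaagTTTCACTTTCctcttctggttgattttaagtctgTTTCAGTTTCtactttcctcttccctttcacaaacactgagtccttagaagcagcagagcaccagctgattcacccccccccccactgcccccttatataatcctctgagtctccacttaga
B2m, chr2:122147437-122147686, plus strand: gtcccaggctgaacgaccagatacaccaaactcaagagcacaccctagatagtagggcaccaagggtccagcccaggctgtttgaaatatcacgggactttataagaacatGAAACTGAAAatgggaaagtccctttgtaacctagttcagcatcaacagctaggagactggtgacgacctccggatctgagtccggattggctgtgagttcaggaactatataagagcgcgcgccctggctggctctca

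A RefSeq promoter was matched by symbol, and its 250 bases before the start were searched on both strands, for 33 rises, 40 falls and 8067 of the genes at 5 CPM. ACGTG on either strand occurred in 19 of 40 falls (47.5%), 2 of 33 rises (6.06%) and 22.7% of the 8067. GCGTG occurred in 22 falls (55%), 5 rises (15.2%) and 48.2% of the 8067. The interferon element core occurred in 6 of 33 rises (18.2%), 0 of 40 falls and 2.54% of the 8067. Irf7, a rise of the same set, held none in its promoter. Other motifs were as frequent in the rises: TGATGNAA, the ATF4 element core, occurred in 6 rises (18.2%), 1 fall (2.5%) and 1.79% of the 8067, and TGANTCA, the AP-1 site, in 6 rises (18.2%), 1 fall (2.5%) and 3.84%. TATAAA occurred in 8 rises (24.2%), 2 falls (5%) and 5.7%. All 6 oxygen-linked falls with a promoter (Fam162a, Bnip3, P4ha2, P4ha1, Higd1a and Egln1) held ACGTG or GCGTG, and 8 of 12 glycolytic falls did, beside 59.5% of the 8067. Both forms of the hypoxia core were searched after the members had been seen, and a match is a string of letters, not a bound site.

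Several libraries stood apart. Library totals ran from 10560942 to 17086721 counts. In the 10 mM washout group, library a held the highest value of its group for 48 of 60 rises (80%), against 30.5% of the 10281 genes, and was at least 1.5 times both others for 17 of them. In the washout vehicle, library c was the lowest for 46 of 60 rises, against 3800 of the 10281 genes. Library b of that group was the highest for 36 of 60 falls, against 33.2% of the 10281. Library c of 6 mM after washout was at least 1.5 times both others for 210 of the 10281 genes. It was the highest of its group for 38 of 60 falls (63.3%), against 45% of the 10281. The labelled cell type was checked by marker sums: 11 epithelial markers together held 0.686 to 3.14 CPM over all libraries, with Cldn4 at 0 throughout. The 15 alveolar and club cell markers together held 45.4 to 71.5 CPM, mostly Abca3 (mean 45.8 CPM) and Hopx (mean 12.1 CPM), while Sftpa1, Sftpc, Sftpd and Nkx2-1 were at 0 in every library. The 14 fibroblast and mesenchymal markers together held 20944 to 25567 CPM. Most of it came from Fn1, Col1a1 and Vim (means 5651, 5624 and 5206 CPM), Col1a2, Acta2 and Col3a1. In the same list, Thy1, Pdgfra and Pdgfrb were low, with means of 3.66, 6.59 and 7.11 CPM. In such bulk samples, fewer cells of a type and less RNA per cell cannot be told apart.

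**Figure D1:**
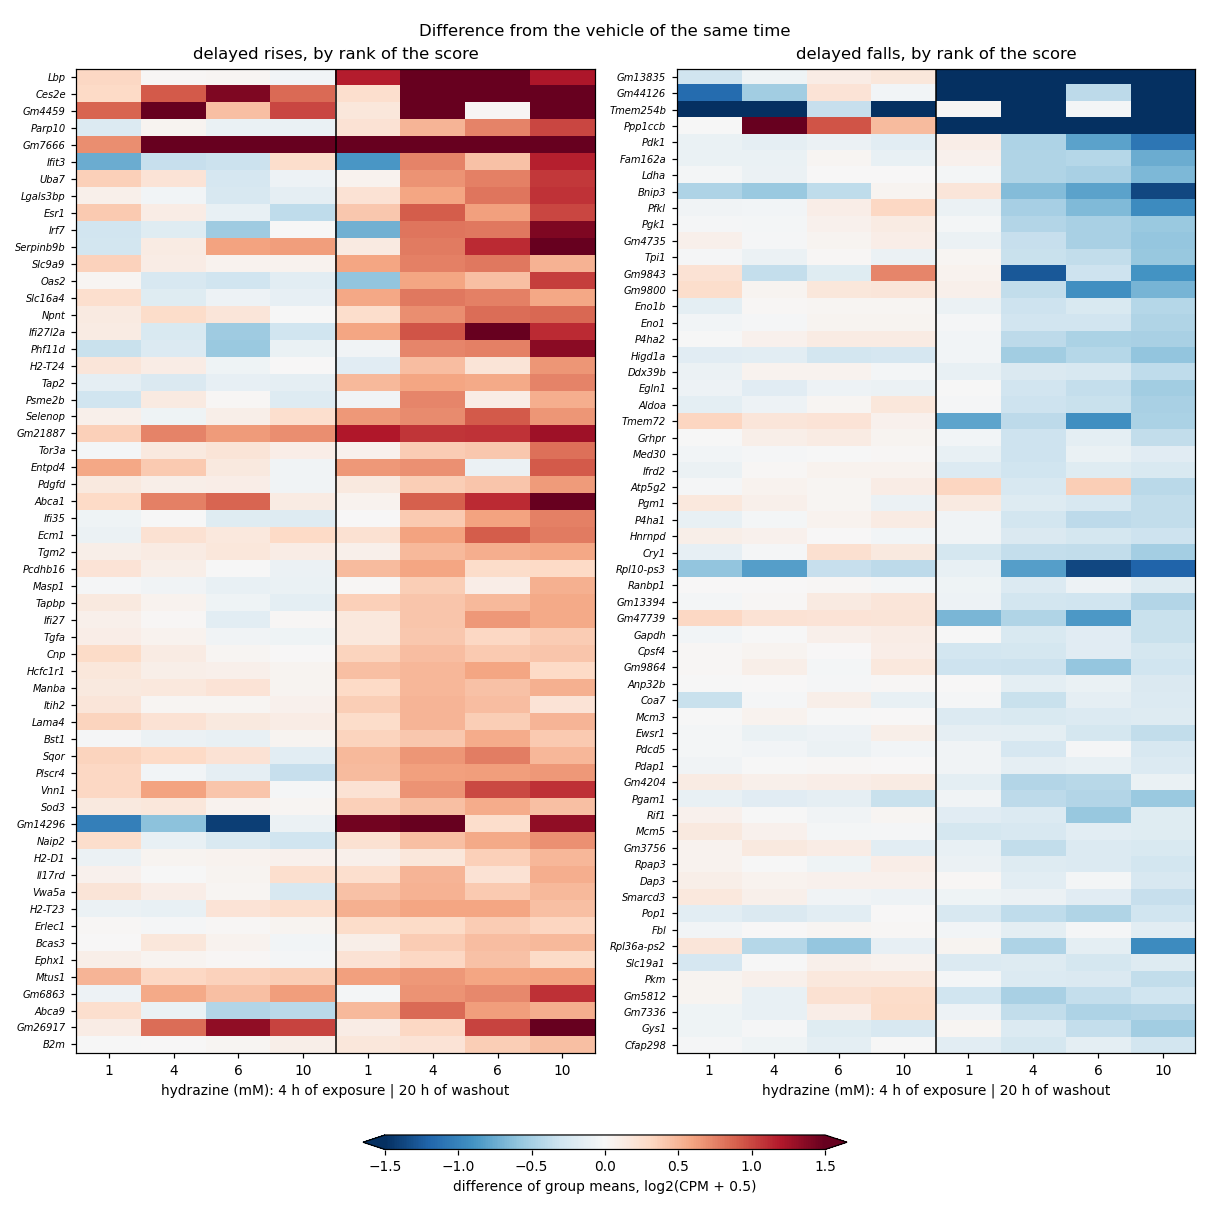
Difference from the vehicle of the same time in the group mean of log2(CPM + 0.5), for 58 delayed rises (left) and 60 delayed falls (right), each row a gene in order of its score. Columns are doses in mM at 4 h and after washout, red is higher, blue is lower, and colours stop at 1.5. The score used the 4 and 10 mM washout columns and the 4, 6 and 10 mM columns at 4 h.

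The scores of the rises ran from 1.32 for Lbp to 0.24, with a median of 0.36, and those of the falls from 1.72 for Gm13835 to 0.12, with a median of 0.19. The falls were thus small: their median D was -0.31 at 4 mM and -0.38 at 10 mM, against 0.60 and 0.65 for the rises. At the edge of the rises, Gm26917 and B2m scored 0.25 and 0.25 inside, and Mr1, Isg20 and Psme2 scored 0.24, 0.24 and 0.24 outside. For the falls, Gm7336, Gys1 and Cfap298 scored 0.12, 0.12 and 0.12 inside, and Cmss1, Orc1 and Ran scored 0.11, 0.11 and 0.11 outside. No gap separated members from the genes that followed.

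Whether members changed only after washout was examined with edgeR's quasi-likelihood test, in 1 model of all 32 libraries, with a gene called at a Benjamini-Hochberg adjusted p under 0.05 over 13258 genes. The rule used these contrasts, so the counts describe the members and nothing is read from them. At 10 mM after washout, 28 rises were called higher (3.38% of all genes were) and 32 falls lower (1.94%). Without the a libraries after washout, 17 rises and 26 falls were called at 10 mM. That fit held fewer libraries in every washout group, and its share of all genes at 10 mM was not counted. The lower counts are thus not read as a result about the members. At 4 mM the counts were 25 rises (2.31%) and 29 falls (1.17%), and at 6 mM 31 rises (6.43%) and 33 falls (4.63%). At 1 mM they were 8 rises (0.694%) and 2 falls (0.287%).

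Libraries did not overlap with the vehicle, in the direction of the score, for 37 rises (17.6% of genes at 5 CPM were higher without overlap) and 52 falls (15.3% were lower) at 10 mM. The same held for 46 rises (17.9%) and 46 falls (15.2%) at 4 mM, and for 33 rises (13.5%) and 29 falls (11.8%) at 6 mM. All these comparisons share the vehicle libraries.

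At 4 h, 1 rise was called higher at 1 mM (4.48%), 7 at 4 mM (19.5%), 7 at 6 mM (20.3%) and 10 at 10 mM (26%). Falls called lower at 4 h numbered 2 at 1 mM (5.36%), 5 at 4 mM (19.1%), 1 at 6 mM (19.6%) and 1 at 10 mM (24.1%). Another 3 falls at 6 mM and 18 at 10 mM were called higher, opposite to their sign after washout. In either direction, 38.6%, 39.8% and 50.1% of all genes were called at 4, 6 and 10 mM at 4 h, each dose taken alone. At least 1 of these doses gave a call for 13 rises and 22 falls, a joint count that was not made for all genes. The score itself favoured small 4 h differences at these doses. After washout, 34 rises and 34 falls were called in the direction of the score at 4 or 10 mM, and 26 of each at neither. Those called at 4 or 10 mM after washout and at none of 4, 6 and 10 mM at 4 h were 21 of 60 rises and 15 of 60 falls. By calls, the wording "only after washout" was met in these members and not in the others. The share of all genes that met the same joint conditions was not counted, and the rule used these contrasts. The counts therefore only describe the members.

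The 6 and 1 mM washout libraries took no part in the score and served as the independent comparison. At 6 mM, 8 of 60 rises were called higher than at 1 mM, or 13.3%, against 1.66% of all genes, and 17 of 60 falls were called lower, or 28.3%, against 1.3%. No rise was called lower (0 at an unadjusted p under 0.05 and 0 by DESeq2) and no fall was called higher (1 at an unadjusted p under 0.05 and 0 by DESeq2). The median log2 fold change was 0.24 for the rises and -0.14 for the falls, beside 0.00 for all genes. Libraries of both groups did not overlap for 12 rises that were higher (7.2% of genes at 5 CPM were) and 20 falls that were lower (5.98%), with 1 fall higher. With only these 6 libraries in the fit, the calls dropped to 1 rise and 0 falls (1 gene of all tested), and with the 15 washout libraries they were 7 rises and 7 falls (118 genes of all tested).

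**Figure D2:**
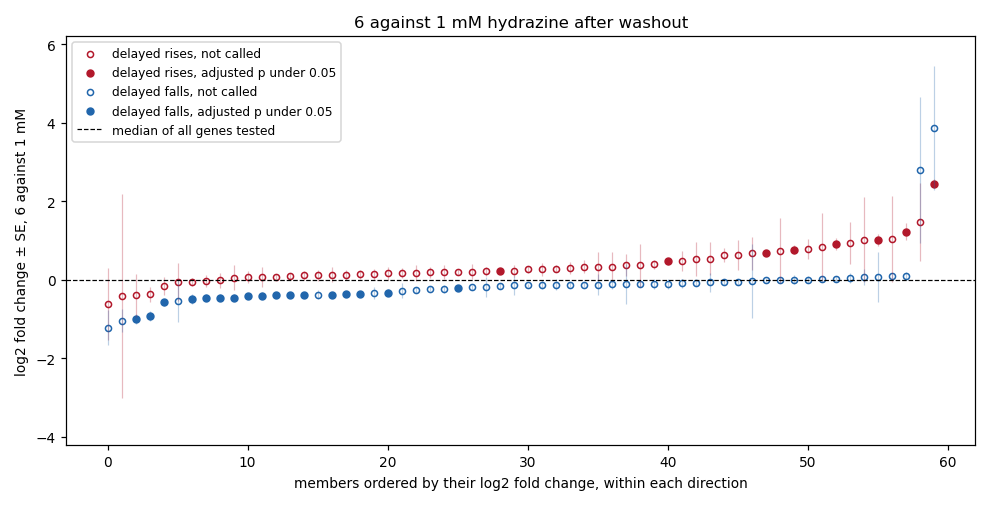
Log2 fold change of 6 against 1 mM hydrazine after washout, with its standard error, for 60 rises (red) and 60 falls (blue), ordered within each direction. Filled points passed an adjusted p under 0.05 (8 rises and 17 falls), open points did not, and the dashed line is the median of all 13258 genes at 0.00.

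Of 13 falls of glycolysis and glucose storage, 9 were called lower at 6 than at 1 mM, and all 13 had a negative fold change, with a median of -0.39. Of 6 oxygen-linked falls, 5 were called and all 6 were negative (median -0.42). The other called falls were Hnrnpd, which encodes an RNA-binding protein, and the Eno1 and Gapdh copies Gm4735 and Gm7336.

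Pdk1 had the highest score among these genes. After washout it stood at 92.8, 115 and 64.3 CPM in vehicle libraries a, b and c, at 84.9, 98.7 and 102 CPM at 1 mM, at 66.4, 57.6 and 67.4 CPM at 4 mM, at 52.3, 48.2 and 50.2 CPM at 6 mM and at 41.4, 44.3 and 38.3 CPM at 10 mM. All 6 mM libraries lay below all 1 mM libraries, and the log2 fold change was -0.93 ± 0.12 (adjusted p = 2.44e-05, edgeR, n = 3 per group). At 4 h the level was 55.4 ± 4.65 CPM (SD, n = 3) in the vehicle and 49.6 ± 2.56 CPM at 10 mM, so all washout vehicle libraries lay above the earlier vehicle, while no 10 mM library after washout lay above those at 4 h.

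Bnip3 followed the same order. Its vehicle libraries after washout held 77.3, 101 and 55.8 CPM, and those at 1 mM 77.2, 94.6 and 87.8 CPM. The libraries at 4 mM held 53.3, 42.1 and 49.3 CPM, those at 6 mM 41.6, 40.0 and 49.0 CPM, and those at 10 mM 31.0, 29.0 and 27.2 CPM. The 6 and 1 mM libraries did not overlap, with a log2 fold change of -0.999 ± 0.13 (adjusted p = 4.28e-05, edgeR, n = 3). Bnip3 was not flat at 4 h: it was called lower at 4 mM, with a log2 fold change of -0.58 (adjusted p = 0.00047, edgeR), and stood at 44.1 ± 3.53 CPM at 10 mM against 42.8 ± 4.88 CPM in the vehicle (SD, n = 3).

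Ldha, the enzyme that makes lactate, was far more abundant. It stood at 1399, 1576 and 1294 CPM in the washout vehicle, at 1308, 1546 and 1324 CPM at 1 mM, at 1063, 1013 and 1032 CPM at 4 mM, at 935, 918 and 1204 CPM at 6 mM and at 899, 901 and 867 CPM at 10 mM. Library c of 6 mM was the highest of its group and still lay below every 1 mM library, and the log2 fold change of 6 against 1 mM was -0.46 ± 0.08 (adjusted p = 0.00151, edgeR, n = 3). Pfkl, the liver form of phosphofructokinase, held 198, 207 and 212 CPM at 1 mM and 134, 128 and 154 CPM at 6 mM after washout. Its log2 fold change was -0.58 ± 0.08 (adjusted p = 8.42e-05, edgeR, n = 3), and at 4 h it had stood higher at 10 mM (195 ± 6.13 CPM) than in the vehicle (157 ± 11 CPM).

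Pgk1 held 1072, 1272 and 1196 CPM at 1 mM and 817, 784 and 991 CPM at 6 mM after washout, a log2 fold change of -0.46 ± 0.09 (adjusted p = 0.00179, edgeR, n = 3). Gys1, muscle glycogen synthase, held 62.6, 57.8 and 73.6 CPM at 1 mM and 48.2, 50.1 and 49.0 CPM at 6 mM (-0.41 ± 0.07). P4ha2, a subunit of the collagen prolyl hydroxylase, held 87.6, 96.4 and 101 CPM at 1 mM and 66.6, 68.6 and 74.5 CPM at 6 mM (-0.45 ± 0.08). In these 3 genes no library of 6 mM reached any of 1 mM. Fam162a, a mitochondrial protein gene induced by low oxygen, overlapped: it held 121, 156 and 139 CPM at 1 mM and 90.7, 85.3 and 122 CPM at 6 mM, where library c set the overlap (-0.49 ± 0.12, adjusted p = 0.0259, edgeR, n = 3).

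The remaining called genes of both sets were Tpi1 (triosephosphate isomerase), Pgam1 (phosphoglycerate mutase), Aldoa (aldolase), Pgm1 (phosphoglucomutase), P4ha1 (a collagen prolyl hydroxylase subunit) and Egln1 (the main HIF prolyl hydroxylase), with log2 fold changes from -0.39 to -0.33. Eno1 (enolase), with a log2 fold change of -0.26, Pkm (pyruvate kinase), with -0.20, and Gapdh, with -0.16, were not called at 6 against 1 mM, nor was Higd1a, a mitochondrial hypoxia gene, with -0.38 (adjusted p = 0.0714, 0.0895, 0.338 and 0.0792, edgeR). Eno1b, a near copy of Eno1, was also in the glycolytic set. Library c of 6 mM was the highest of its group for most falls, and for 45% of genes at 5 CPM. Without that library, 24 falls in place of 17 were called.

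**Figure D3:**
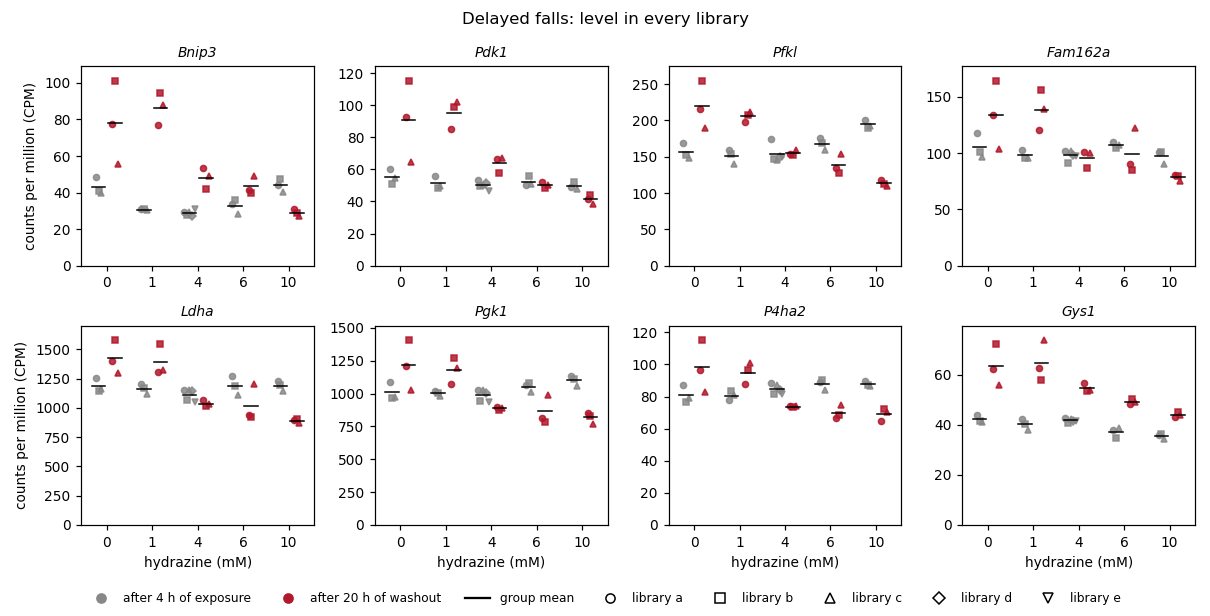
CPM of the 8 called falls with the largest fold change of 6 against 1 mM, in every library against the hydrazine dose in mM, grey at 4 h and red after washout, marker shapes for library letters and bars for group means. The red vehicle and 1 mM points of Pdk1 lie between 64.3 and 115 CPM, and the red 6 and 10 mM points between 38.3 and 52.3 CPM, close to the grey points.

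Levels over time set these genes in context. The 1 mM groups, which the score did not use, allow the same dose to be compared after washout and at 4 h. Of the 60 falls, 20 were called higher after washout, or 33.3%, against 9.13% of all genes, and 1, the helicase gene Mcm5, lower (-0.41). The 20 included 11 of 13 glycolytic and all 6 oxygen-linked falls. Bnip3 rose by 1.51 ± 0.14 log2 units (from 30.8, 30.9 and 30.5 CPM at 4 h, adjusted p = 1.11e-08, edgeR, n = 3), Pdk1 by 0.90 ± 0.12, Gys1 by 0.71 ± 0.08, Pfkl by 0.46 ± 0.08 and Ldha by 0.28 ± 0.08. The vehicles of both times were not compared by a test, and the score used them. Their libraries did not overlap for Pdk1 and Bnip3, but they overlapped for Pgk1 (965 to 1089 CPM at 4 h and 1026 to 1404 CPM after washout), Fam162a (96.6 to 118 and 104 to 164 CPM) and Gapdh (826 to 863 and 847 to 932 CPM). In the washout vehicle, library c was the lowest for all 13 glycolytic and all 6 oxygen-linked falls; what part that library played was not tested.

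Genes of the same pathways, members included, were read from lists written after values had been seen. Of 18 glycolytic enzymes, 9 were falls, 17 were tested and 6 were called lower at 6 than at 1 mM, with a list median of -0.26. All 6 were members (Aldoa, Ldha, Pfkl, Pgam1, Pgk1 and Tpi1), so no enzyme outside the members was called lower. Hk2 (hexokinase 2), no member and named after its values were seen, was not called, at -0.51 on the log2 scale (adjusted p = 0.0694, edgeR). Of 24 HIF1 targets outside glycolysis, 9 were falls, 23 were tested and 14 were called lower, with a median of -0.38 beside 0.00 for all genes. The 14 included all of these falls except Higd1a. Among the HIF1 targets that were not members, Slc2a1, the glucose transporter GLUT1, had -0.46 ± 0.08, Ankrd37, a small hypoxia-induced gene, -1.004 ± 0.22, and Bhlhe40, a transcription factor, -0.51 ± 0.11. Vegfa, also chosen after its values were seen, had -0.26 (adjusted p = 0.0626, edgeR) and was not called. No gene of either list was called higher at 6 than at 1 mM (1 glycolytic enzyme and 0 HIF1 targets at an unadjusted p under 0.05, 0 and 0 by DESeq2).

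The falls of other roles included genes of replication and RNA processing, with median D at 10 mM of -0.18 for 3 replication genes and -0.28 for 9 RNA processing genes, beside -0.52 for the glycolytic set. The replication genes were Mcm3 and Mcm5, subunits of the replicative helicase, and Rif1, a regulator of origin firing. Mcm5 stood at 330, 345 and 372 CPM in the washout vehicle and at 316, 279 and 277 CPM at 1 mM, so it was lower from the lowest dose, and at 6 mM it held 310, 311 and 315 CPM. None of these 3 was called at 6 against 1 mM (1 lower at an unadjusted p under 0.05, 0 by DESeq2). Rif1 differed within a group that the score did not use, with 60.7 CPM in library c of 6 mM against 130 and 128 CPM in the others.

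Genes of RNA processing and transcription were Ddx39b, Hnrnpd, Cpsf4, Ewsr1, Pop1, Fbl, Rpap3, Med30 and Dap3, the last a mitochondrial ribosome protein. Of these 9, 1 was called lower at 6 than at 1 mM. It was Hnrnpd, at 203, 207 and 200 CPM against 183, 167 and 181 CPM (log2 fold change -0.21 ± 0.04, adjusted p = 0.00554, edgeR, n = 3). The other 13 falls with various roles were Tmem72, Grhpr, Ifrd2, Atp5g2, Cry1, Ranbp1, Anp32b, Coa7, Pdcd5, Pdap1, Smarcd3, Slc19a1 and Cfap298, and none was called in that comparison (0 at an unadjusted p under 0.05, 0 by DESeq2). Cry1, a repressor of the circadian clock, stood at 14.0, 14.7 and 18.4 CPM in the washout vehicle and at 10.0, 11 and 11.5 CPM at 10 mM.

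The 4 falls with the highest scores were low or multi-copy genes whose counts are uncertain. Gm13835, a predicted gene identical to Psma3 over 685 aligned bases, stood at 42.1, 43.2 and 4.31 CPM in the washout vehicle and between 3.46 and 7.05 CPM in all other washout libraries. Its score thus rested on vehicle libraries a and b, and vehicle library c lay with the treated ones. Tmem254b, 1 of several near-identical Tmem254 copies, held 9.07, 0.00833 and 0.0334 CPM in the 3 libraries at 4 mM and at most 0.327 CPM at 10 mM. At 6 mM after washout it held 5.99 to 10.9 CPM, beside 6.75 to 9.26 CPM in the vehicle and 6.72 to 9.5 CPM at 1 mM. Gm44126, identical to Uxs1 over 512 bases, held 2.91, 7.39 and 7.40 CPM in the washout vehicle, 0.649, 5.81 and 0.42 CPM at 4 mM and 9.59, 6.37 and 0.861 CPM at 6 mM. Ppp1ccb, a near copy of Ppp1cc, held 5.36, 6.04 and 14.8 CPM in the washout vehicle. It held 1.95 CPM in 1 library at 10 mM and practically 0 in the other two.

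Such copies were frequent among the falls. A search of transcripts at 95% identity over at least 50% of the length found a similar gene for 22 falls and 8 rises. Pseudogenes made up 13 falls (21.7%) and 3 rises (5%), against 1.34% of genes at 5 CPM. The set of 16 predicted genes and copies comprised Gm13835, Gm44126, Tmem254b, Ppp1ccb, Gm4735, Gm9843, Gm9800, Rpl10-ps3, Gm13394, Gm47739, Gm9864, Gm4204, Gm3756, Rpl36a-ps2, Gm5812 and Gm7336. Of these, 2 were called lower at 6 than at 1 mM: Gm4735, close to Eno1, at 184, 203 and 187 CPM against 146, 131 and 162 CPM, and Gm7336, close to Gapdh, at 122, 116 and 116 CPM against 86.5, 92.6 and 90.3 CPM. Reads of a copy and of its parent gene may be split by the counting, so these values are not independent of Eno1 and Gapdh.

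Among the rises, enzymes and transporters carried most of the independent calls. Of 13 such genes, 5 were called higher at 6 than at 1 mM and 12 had a positive fold change (median 0.21). Among the rises, the largest fold change of 6 against 1 mM was that of Ces2e, a carboxylesterase that cleaves ester drugs and lipids and listed among NRF2 targets. After washout it stood at 6.70, 6.86 and 6.28 CPM in the vehicle, at 7.04, 8.90 and 8.15 CPM at 1 mM, at 25.3, 20.9 and 23.7 CPM at 4 mM, at 42.8, 41.5 and 47.7 CPM at 6 mM and at 43.9, 40.0 and 40.4 CPM at 10 mM. No library of 4, 6 or 10 mM overlapped the vehicle or 1 mM. The log2 fold change of 6 against 1 mM was 2.45 ± 0.12 (adjusted p = 4.97e-15, edgeR, n = 3). At 4 h Ces2e was already above the vehicle (3.92 ± 0.647 CPM), at 7.39 ± 0.581 CPM at 10 mM and between 9.01 and 13.2 CPM at 6 mM, so the washout level followed a smaller difference at 4 h.

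Ephx1, microsomal epoxide hydrolase and in the same list, showed a small difference with tight libraries. It stood at 247, 260 and 264 CPM at 1 mM and at 289, 285 and 328 CPM at 6 mM after washout, with a log2 fold change of 0.22 ± 0.05 (adjusted p = 0.013, edgeR, n = 3). At 4 h all groups lay between 202 and 227 CPM. Of the 31 NRF2 targets listed, 25 were tested, 3 were called higher and 1 lower at 6 against 1 mM, and Ces2e and Ephx1 were the members among them.

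Abca1, the exporter of cholesterol from cells, held 3.44, 2.56 and 3.90 CPM at 1 mM and 9.72, 9.47 and 4.19 CPM at 6 mM (1.23 ± 0.21, adjusted p = 0.000891, edgeR, n = 3). Library c of 6 mM lay just above the 1 mM libraries. Vnn1, a pantetheinase, held 39.5, 37.9 and 31.4 CPM at 1 mM and 58.1, 65.2 and 63 CPM at 6 mM (0.77 ± 0.11, adjusted p = 6.92e-05). Tgm2, tissue transglutaminase, held 17.8, 17.1 and 19.9 CPM at 1 mM and 25.0, 26.8 and 24.4 CPM at 6 mM (0.47 ± 0.10, adjusted p = 0.00682). All 3 were called lower after washout than at 4 h at 1 mM (-1.05, -0.71 and -0.46 log2 units), and the vehicle of Vnn1 stood at 48.8 ± 7.72 CPM at 4 h and 31.1 ± 2.91 CPM after washout (SD, n = 3). At 4 h, Abca1 and Vnn1 already stood above the vehicle without overlap at 4 and 6 mM, but overlapped it at 10 mM. Abca1 held 8.81 to 10.5 CPM at 4 mM against 5.14 to 6.00 CPM in the vehicle. Vnn1 held 65.1 to 82.6 CPM at 4 mM against 42.5 to 57.4 CPM in the vehicle. Tgm2 overlapped the vehicle at 4 h. At 10 mM after washout all 3 genes lay near or above the 4 h vehicle, while the washout vehicle lay below it.

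**Figure D4:**
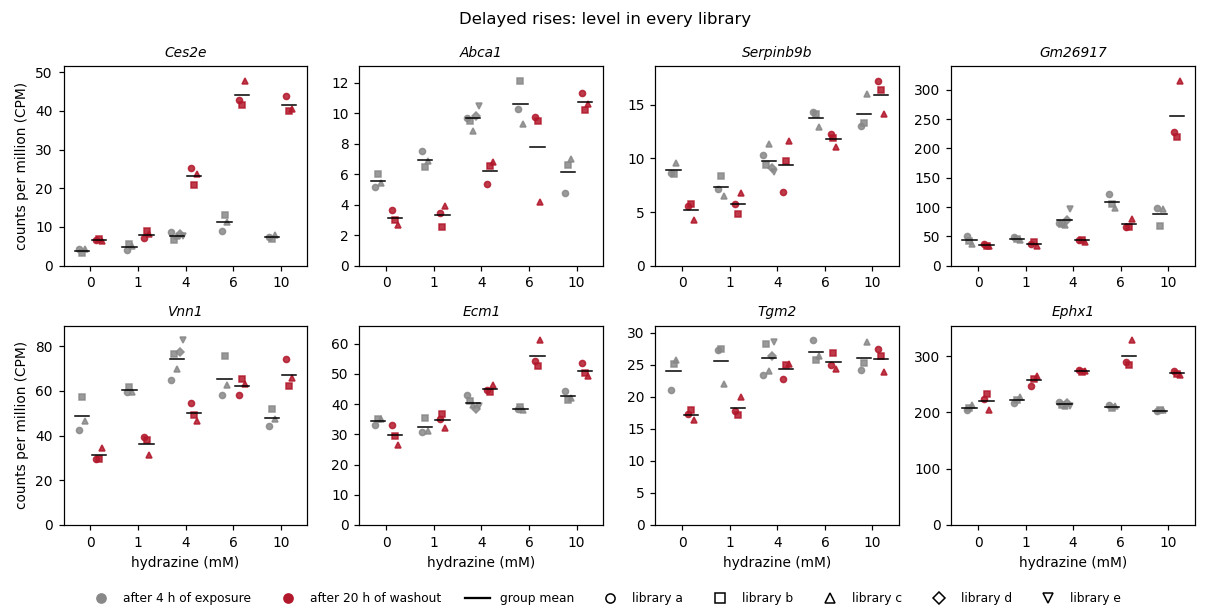
CPM of the 8 rises called higher at 6 than at 1 mM, in every library against the hydrazine dose in mM, grey at 4 h and red after washout, marker shapes for library letters and bars for group means. For Ces2e the red points at 6 and 10 mM lie between 40.0 and 47.7 CPM, above all grey points, and for Abca1 the red vehicle points lie below the grey ones.

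The other 3 rises called at 6 against 1 mM came from other sets. Ecm1, a secreted matrix protein, held 35.1, 36.9 and 32 CPM at 1 mM and 54.3, 52.7 and 61.1 CPM at 6 mM, with no overlap (0.68 ± 0.07, adjusted p = 1.36e-06, edgeR, n = 3). Serpinb9b, an intracellular protease inhibitor, held 5.73, 4.83 and 6.74 CPM at 1 mM and 12.3, 11.9 and 11.1 CPM at 6 mM (1.02 ± 0.16, adjusted p = 0.000199). Gm26917, a predicted gene, held 37.0, 41.0 and 34.3 CPM at 1 mM and 65.2, 65.9 and 80.0 CPM at 6 mM (0.90 ± 0.15, adjusted p = 0.00104), and it reached 229, 220 and 315 CPM at 10 mM. Both Serpinb9b and Gm26917 were above the vehicle at 4 h too: Gm26917 held 87.8 ± 17.3 CPM at 10 mM against 43.1 ± 6.58 CPM (SD, n = 3).

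The 11 secreted and matrix proteins included Lbp, Npnt, Selenop, Pdgfd, Ecm1, Masp1, Tgfa, Itih2, Lama4 and Sod3. Lbp, the serum protein that binds bacterial lipopolysaccharide, had the highest score of all rises at low levels. It stood at 2.06, 2.01 and 0.979 CPM in the washout vehicle, at 2.37, 4.64 and 6.91 CPM at 1 mM, at 5.83, 5.21 and 5.51 CPM at 4 mM, at 5.56, 6.31 and 6.17 CPM at 6 mM and at 5.15, 4.95 and 3.38 CPM at 10 mM. The 6 and 1 mM groups overlapped, with a log2 fold change of 0.37 ± 0.27 (adjusted p = 0.54, edgeR, n = 3). All libraries at 4, 6 and 10 mM lay above all 3 vehicle libraries, and those at 10 mM were not above those at 4 mM.

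Selenop, the selenium carrier, stood at 43.7, 37.3 and 31.6 CPM in the washout vehicle, at 52.6, 60.7 and 63.6 CPM at 1 mM and at 60.5, 60.8 and 56.6 CPM at 10 mM. Every treated library lay above every vehicle library, while 6 and 1 mM were not told apart (0.26 ± 0.09, adjusted p = 0.136, edgeR, n = 3). The set held 5 of the 8 rises called at 1 mM against vehicle after washout in a contrast that shares its vehicle with the score. At 1 mM, 6 of the 11 were called higher after washout than at 4 h, among them Lbp (1.60 ± 0.32) and Selenop (0.99 ± 0.10), and 13 of all 60 rises were, or 21.7%, against 9.13% of all genes. Another 4 rises were called lower with time (9.35% of all genes were), namely Abca1, Vnn1, Mtus1 and Tgm2.

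The enzymes and transporters not yet described were Slc9a9, Slc16a4, Entpd4, Abca9, Sqor, Manba, Cnp and Bst1. Sqor, the mitochondrial enzyme that oxidises hydrogen sulphide, stood at 17, 17.6 and 15.7 CPM in the washout vehicle, at 22.9, 25.7 and 22.3 CPM at 1 mM and at 27.6, 28.2 and 30.9 CPM at 6 mM (0.28 ± 0.09 for 6 against 1 mM, adjusted p = 0.0911, edgeR, n = 3). Entpd4 has a copy, Entpd4b, that is identical over 3589 bases, and it held 2.80, 36.3 and 20.7 CPM in the vehicle and 21.7, 3.61 and 22.7 CPM at 6 mM, so its counts moved between libraries of 1 group. The 11 other rises were Esr1, Serpinb9b, Pcdhb16, Hcfc1r1, Plscr4, Naip2, Il17rd, Vwa5a, Erlec1, Bcas3 and Mtus1. Esr1, the oestrogen receptor, stood at 3.02, 3.68 and 3.43 CPM in the vehicle, at 7.03, 6.68 and 6.63 CPM at 4 mM, at 4.80, 5.94 and 5.59 CPM at 6 mM and at 8.62, 6.46 and 6.77 CPM at 10 mM. The predicted genes were Gm4459, Gm7666, Gm21887, Gm14296, Gm6863 and Gm26917, of which 4 had a similar gene elsewhere. Gm4459, close to Ndufab1, held 11.9, 0.322 and 10.7 CPM at 10 mM and 9.35, 0 and 5.28 CPM at 4 mM, and Gm7666, close to Phb, was practically 0 in vehicle libraries b and c.

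The largest set of rises, 19 genes, belonged to the interferon response and antigen presentation, and 1 library carried much of it. The set included Parp10, Ifit3, Uba7, Lgals3bp, Irf7, Oas2, Ifi27l2a, Phf11d, H2-T24, Tap2, Psme2b, Tor3a, Ifi35, Tapbp, Ifi27, H2-D1, H2-T23 and B2m. Library a of 10 mM was the highest of its group for all 19 and at least 1.5 times both others for 16 of them. The summed level of the set was 1611 CPM in that library against 807 and 623 CPM in libraries b and c. It was 675, 598 and 454 CPM in the vehicle, 539, 875 and 544 CPM at 1 mM, 774, 695 and 727 CPM at 4 mM and 626, 819 and 1068 CPM at 6 mM. Vehicle library c was the lowest of its group for all 19. The median D of the set at 10 mM was 0.76 with library a and 0.30 without it. Summed leukocyte markers, mostly Cd14, held 22.7 to 26.2 CPM in the washout vehicle and 26.0 to 26.8 CPM at 10 mM. They held 28.4 to 35.6 CPM at 1 mM and 27.3 to 37.0 CPM at 6 mM after washout. Adgre1 and Tyrobp were at 0 in every library, and Ptprc reached at most 0.0839 CPM. The part of leukocyte markers in the result was not tested.

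Ifit3 showed the spread most plainly. It held 29.6, 10.4 and 3.26 CPM in the vehicle, 2.09, 19.1 and 3.44 CPM at 1 mM, 17.5, 19.3 and 15.7 CPM at 4 mM, 5.87, 25.3 and 18.4 CPM at 6 mM and 166, 18.9 and 3.80 CPM at 10 mM. Vehicle and 10 mM overlapped, and without library a its D at 10 mM was -0.23 in place of 1.16. Irf7, the transcription factor that amplifies interferon expression, held 10.0, 5.94 and 1.06 CPM in the vehicle and 58.8, 8.22 and 3.26 CPM at 10 mM. Lgals3bp, a secreted glycoprotein induced by interferon, held 78.6, 68.6 and 42.2 CPM in the vehicle and 279, 111 and 71.0 CPM at 10 mM, where only libraries a and b lay above every vehicle library.

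Antigen presentation genes differed in their spread. H2-T24, a nonclassical class I gene, ran from 2.63 to 16.1 CPM at 10 mM, and its D there was 0.66 with library a and -0.07 without it. H2-T23, another such gene, ran from 2.79 to 9.21 CPM, with a D of 0.45 and 0.03. B2m stood at 220, 202 and 182 CPM in the vehicle, at 204, 276 and 207 CPM at 1 mM, at 244, 225 and 229 CPM at 4 mM, at 221, 259 and 306 CPM at 6 mM and at 350, 254 and 233 CPM at 10 mM. Its 4 and 10 mM libraries lay above the vehicle in every case, and 6 and 1 mM overlapped. Tapbp, the tapasin that loads peptides onto class I, held 65.6, 63.4 and 48.4 CPM in the vehicle, 82.5, 75.9 and 76.3 CPM at 4 mM and 128, 79.3 and 65.0 CPM at 10 mM. Parp10 held 14.8, 11 and 7.42 CPM in the vehicle and 52.5, 16.8 and 11.7 CPM at 10 mM, and Uba7, which activates the ubiquitin-like protein ISG15, held 5.82, 6.28 and 3.34 CPM and 24.8, 9.31 and 5.45 CPM, with overlap in both.

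None of the 19 was called at 6 against 1 mM by edgeR's quasi-likelihood test (0 at an unadjusted p under 0.05, 0 by DESeq2), although all 19 fold changes were positive, with a median of 0.49. Of a longer list of 38 interferon-stimulated genes, 35 were tested and 5 were rises (Ifi27, Ifi35, Ifit3, Irf7 and Oas2). It had 1 call at 10 mM against vehicle and 0 at 6 against 1 mM (0 at an unadjusted p under 0.05, 0 by DESeq2), with 31 of 35 fold changes positive. Its summed level at 10 mM was 2420, 719 and 416 CPM in libraries a, b and c, against 701, 530 and 320 CPM in the vehicle. At 4 h vehicle library b held 817 CPM against 366 and 445 CPM in the others, a smaller spread than at 10 mM after washout. What set these high libraries apart was not tested. Of a list of 19 genes of MHC class I and peptide loading, which was written after values had been seen, 6 were rises, and 0 were called at 6 against 1 mM (3 higher at an unadjusted p under 0.05, 0 by DESeq2).

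**Figure D5:**
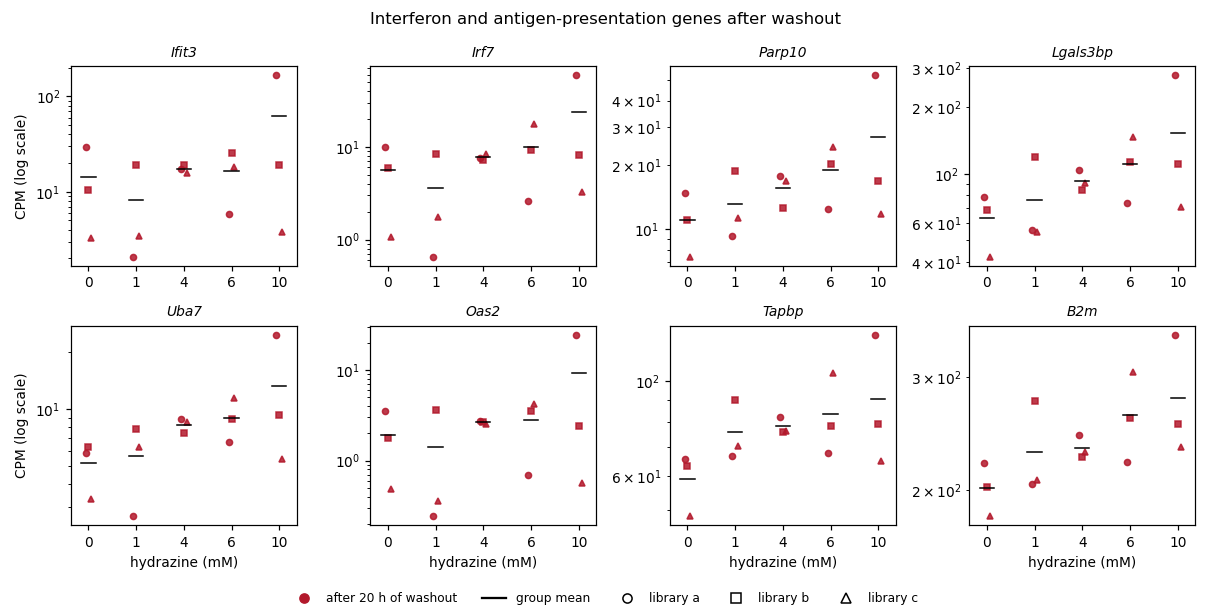
CPM on a log scale of 8 interferon and antigen-presentation rises after washout against the hydrazine dose in mM, 1 point per library with shapes for library letters, and bars for group means. Library a of 10 mM (circle) is the highest point of every panel, at 166 CPM for Ifit3 and 350 CPM for B2m, while libraries b and c lie near the other groups.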

How the data were processed

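Per the labels' protocols, total RNA was extracted with Qiazol and DNase, poly-A selected, made into stranded libraries and sequenced in pairs. The deposited table holds expected counts per gene, which the authors estimated before deposit; 73.9% of the values above 0 were whole. The aligner, the quantifier and the genome build are not given in the sources used here. Symbols were matched for 48174 of 48398 entries with an Ensembl identifier, among 49585 in all, and loci and copies were read from a GENCODE annotation of GRCm38, and promoters from RefSeq, which may differ from the build of the authors. All 32 columns were mapped to samples by their labels.

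Members and lists were chosen with earlier results of these data known. The lists of glycolytic enzymes, HIF1 targets and MHC class I genes, both hypoxia cores and the roles were written after values had been seen. CPM used library totals. For the tests, expected counts were rounded, filtered with filterByExpr (minimum count 10, minimum total 15, which left 13258 genes), scaled with TMM and fitted with edgeR 4.0.16 (robust quasi-likelihood, 10 groups, 22 residual degrees of freedom, common biological coefficient of variation 0.0847) in R 4.3.3. Adjusted p-values came from the Benjamini-Hochberg method over all genes, and each standard error was derived from its F statistic. DESeq2 1.42.0 served as an alternative, and copies were searched with blastn 2.17.0. Counts for 6 against 1 mM after washout were simulated from 1 mean per gene and the trended spread, without deviating libraries. On them, the fit recovered 13, 34, 39 and 45 of 50 genes changed 1.25-, 1.5-, 2- and 4-fold. With 13258 genes tested in all, it called 2 unchanged genes.

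Named genes follow 1 rule: library values were given for the 8 highest scores and the 8 largest called folds of 6 against 1 mM in each direction, other members were named by role, and the edge covered 3 members and 3 non-members. Values of other members (Hnrnpd, Gm4735, Gm7336, Mcm5, Rif1, Cry1, Selenop, Sqor, Entpd4, Esr1, Irf7, B2m and Tapbp) were added to describe their sets, after their values had been seen. Values of 2 rises are not reported here, although counts over all members include them. Reads, strand and splicing were not analysed here.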

Additional observations from a re-analysis of the deposited data

Results flagged for a closer look

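In the only group of 5 libraries, 4 mM at 4 h, 27 named genes were screened for a library that lay far from the other 4 by Dixon's test at the 95% level. Chance flags about 1 in 20 such groups, and 4 of 27 were flagged. Gm4459 stood at 14.4 CPM in library d, Ifit3 at 22.5 CPM in library a, Gm13835 at 2.81 CPM in library c and Pfkl at 174 CPM in library a. These libraries entered the score through the 4 h difference at 4 mM.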

How the results depend on the processing

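Membership depended on scaling and on the level floor. Of 60 falls, 35 stayed among the 60 highest scores with TMM library sizes, and with a floor of 1 CPM 35 rises and 36 falls stayed. Leaving out single libraries kept 34 to 60 rises (34 without library c of the washout vehicle, 39 without library b of the 4 h vehicle) and 45 to 59 falls. In all 29 settings 10 rises and 19 falls stayed.

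At 6 against 1 mM, fits with only the compared groups called 1 rise, 0 falls and 1 gene of all tested, with fewer residual degrees of freedom. Fits with the 15 washout libraries called 7 falls and 118 of all genes. Leaving out all a libraries after washout, an alternative added after seeing the data, gave 167 of all genes at 6 against 1 mM. It gave 17 rises at 10 mM against vehicle, where all genes were not counted. Every washout group then held fewer libraries. Leaving out 1 library gave 7 to 9 rises, 14 to 24 falls and 187 to 752 of all genes (252 without library a of 1 mM, 187 without library c of 1 mM, 752 without library b of 6 mM) in place of 393. At 10 mM against vehicle the ranges were 20 to 37 rises and 27 to 33 falls. The causes were not tested. DESeq2 gave 8 rises, 23 falls and 500 genes at 6 against 1 mM.

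Between 1 and 6 mM after washout, the letters did not pair the libraries (r of same-lettered deviations 0.137, -0.249 and -0.347). Between the washout vehicle and 10 mM, r was 0.196, 0.0587 and 0.174 for a, b and c. Whether the letters paired the libraries of these 2 groups was not tested. A replicate block gave 9 rises, 18 falls and 330 genes at 6 against 1 mM. It gave 26 rises and 29 falls at 10 mM against vehicle. Of 208 fold changes of 16 named genes under alternatives, 176 kept their side of the threshold, 32 missed it (15 of them with only the compared groups) and 0 reversed. Changes under 1.5-fold were often missed at this depth and replication, as the simulation showed.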

Other observations

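Genes of cholesterol and fatty acid synthesis, none of them a delayed rise or fall, were called lower at 6 than at 1 mM after washout in 20 of 29 cases (1.3% of all genes were), and 28 of 29 had a negative fold change, with a median log2 fold change of -0.39 beside 0.00 for all genes, and 13 of 29 were called lower at 10 mM than in vehicle (1.94% of all genes were). The median summed level after washout was 7358 CPM in the vehicle, 8733 at 1 mM and 8073 at 4 mM. It was 7275 CPM at 6 mM and 6702 CPM at 10 mM. The 6 mM level thus lay near the vehicle, and the 1 mM level that it was set against lay above the vehicle. Hmgcs1, an early enzyme of cholesterol synthesis, had a log2 fold change of -0.71 ± 0.07 at 6 against 1 mM (adjusted p = 2.32e-07, edgeR, n = 3), and Lss, which closes the sterol rings, -0.66 ± 0.09. Abca1, the cholesterol exporter, was among the rises.

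Lysosome genes, also outside the members, were called higher in 9 of 27 cases at 6 against 1 mM (1.66% of all genes were) and in 18 of 27 at 10 mM against vehicle (3.38%). At 6 against 1 mM, 25 of 27 had a positive fold change. Ctsf, a lysosomal protease, had 1.15 ± 0.14 (adjusted p = 5.48e-06, edgeR, n = 3), and Man2b1, a mannosidase, 0.49 ± 0.06. Of 31 p53 targets tested, 6 were called higher at 6 against 1 mM and 25 had a positive fold change. Among the called was Mdm2 with 0.34 ± 0.06, and Ephx1 was the member in that list. Both lists already stood higher at 4 h. The median summed p53 level in vehicle, 6 and 10 mM was 3207, 4845 and 5395 CPM at 4 h. After washout it was 3236, 3686 and 3752 CPM. For lysosome genes these levels were 2815, 3901 and 3796 CPM at 4 h, and 2860, 3500 and 3451 CPM after washout.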
